A study of Sus scrofa with 12 samples.

Results

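The 8 subunit genes of the chaperonin CCT, namely TCP1, CCT2, CCT3, CCT4, CCT5, CCT6A, CCT7 and CCT8, were taken by gene symbol from the 18060 genes of the expression table, and all 8 had a row there. RNA came from primary granulosa cells, the somatic cells around the oocyte, recovered from antral follicles of crossbred Duroc, Yorkshire and Landrace sows (Sus scrofa). The cells then spent 12 h in 21% O2 (normoxia) or in 1% O2 (hypoxia), with 3 biological replicates each and no genetic change in either group. Each replicate gave a library of fragmented poly(A) RNA, the input, and a library enriched with an antibody against N6-methyladenosine (m6A), a methylated base of mRNA, so that 12 libraries were made, all under 1 batch label. The 6 input libraries gave the RNA levels, in FPKM (fragments scaled by transcript length and by library), and the m6A libraries gave lists of peaks. From how many sows each replicate came was not given in the sources used here, so p-values measure the spread between these cultures.

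CCT, also called TRiC, is the chaperonin of the cytosol: a barrel of stacked rings in which newly made proteins fold with energy from ATP. Each ring is built from all of the paralogous subunits, TCP1 being alpha and CCT2 to CCT8 beta to theta, and every subunit is needed for growth in yeast. Actin and tubulin are its best known clients, and prefoldin hands them over. In yeast, TCP1, CCT2, CCT4 and CCT5 form the side of the ring that binds ATP strongly, and CCT3, CCT6, CCT7 and CCT8 the side that binds it weakly.

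The libraries summed to between 294929 and 326804 FPKM. Hypoxia library 3 stood apart from the others: its median-ratio factor, a scale set by the middle gene, was 0.753, against 0.935 and 0.984 in the other hypoxia libraries and 1.08 to 1.17 in normoxia. Of 11 granulosa markers 8 reached 1 FPKM in some library, among them FSHR, FOXL2, INHA and WT1, while STAR, AMH and CYP19A1 stayed under 1 FPKM in every library. The summed FPKM of the 11 was 350.3 to 550.0 in normoxia and 168 to 315 in hypoxia, a difference carried by CYP11A1 (315 ± 112 and 128 ± 89.9 FPKM, limma adjusted p = 0.0612). INHA, INHBA, GATA4 and WT1 had log2 fold changes between -0.20 and -0.02 and did not pass. FOXL2 had 6.83 ± 0.904 and 4.50 ± 0.338 FPKM without overlap (-0.51, adjusted p = 0.054), and NR5A1 had -0.29 (0.34). Without hypoxia library 3, CYP11A1, FOXL2 and NR5A1 passed as lower. FSHR, the 1 granulosa marker called in the main fit, had 9.74 ± 0.692 and 5.52 ± 0.257 FPKM (adjusted p = 0.0101). Its call was lost after scaling (0.159) and without normoxia library 3 (0.0591) or hypoxia library 1 (0.0547). The 6 markers of fibroblasts and smooth muscle summed to 7359.7 to 9153 FPKM in normoxia and 3504 to 4619.9 in hypoxia, most of it the actin gene ACTA2. The other members did not share that difference alike: COL3A1 had a ratio of 1.06 and DCN of 0.854, MYH11 went from 76.8 ± 20.6 to 46.6 ± 9.96 FPKM (adjusted p = 0.0845), and DES was at most 4.61 FPKM. PDGFRA was higher in hypoxia, 7.54 to 9.76 against 3.61 to 4.88 FPKM (adjusted p = 0.0121, 0.00516 after scaling, 0.068 without normoxia library 2 and 0.0539 without hypoxia library 1). Endothelial markers summed to 6.28 to 6.93 FPKM in normoxia and 2.88 to 3.16 in hypoxia, nearly all of it PECAM1, which was lower (6.56 ± 0.327 and 2.81 ± 0.26 FPKM, adjusted p = 0.00414, 0.0224 after scaling). Markers of leukocytes summed to at most 7.53 FPKM, of theca 2.03 and of oocytes 1.41 in any library, with TEK, DDX4 and PTPRC under 1 FPKM in every library. The part of these markers in the results on CCT was not tested.

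All 8 subunit genes were well expressed in normoxia. Their mean FPKM lay between the 76.8th percentile (CCT4) and the 96.9th percentile (CCT7) of the 10196 genes tested, those that reached 1 FPKM in 3 or more libraries. The levels, which FPKM allows to be compared between genes, fell into 4 tiers. CCT7, the eta subunit, led with 142 ± 3.26 FPKM (mean ± SD, n = 3) and CCT3, the gamma subunit, followed with 88.6 ± 6.07. CCT2 (50.2 ± 12.0), CCT8 (48.4 ± 5.83), CCT5 (43.8 ± 4.87) and TCP1 (39.9 ± 5.65) had ranges that overlapped from each to the next. CCT6A (21.7 ± 4.0) and CCT4 (19.1 ± 4.17) were lowest and overlapped each other. CCT7 was also the highest of the 8 in each hypoxia library, and the lowest was CCT6A in hypoxia libraries 1 and 3 and CCT4 in the other 4 libraries.

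**Figure D1:**
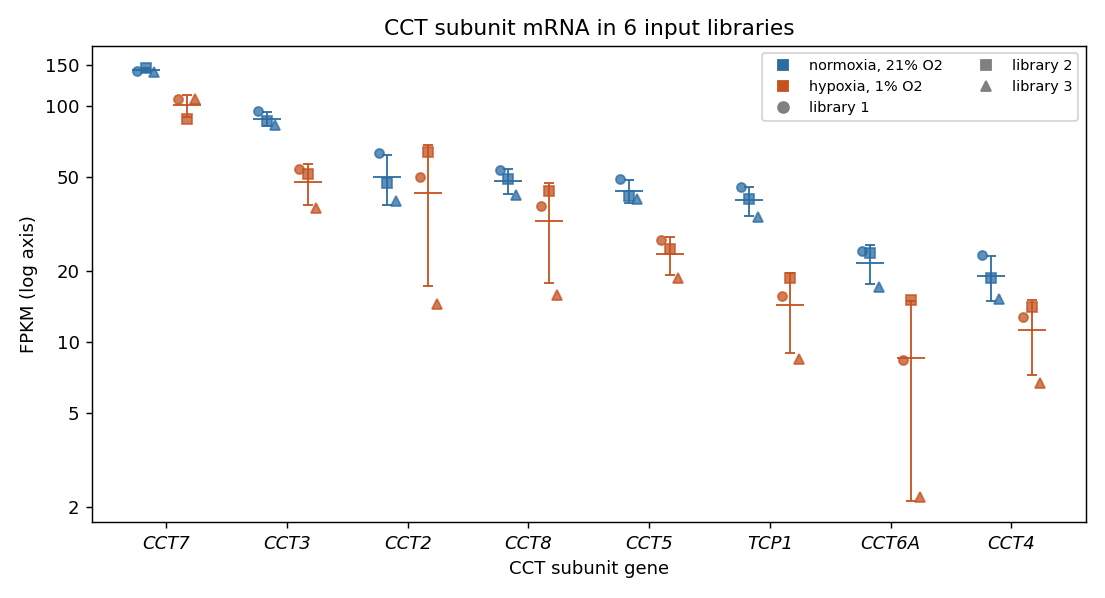
FPKM (log axis) of the 8 CCT subunit genes in the 3 normoxia (blue) and 3 hypoxia (orange) input libraries, with a marker shape for each library and the mean ± SD as bars. The conditions are apart for TCP1, CCT3, CCT4, CCT5, CCT6A and CCT7 and overlap for CCT2 and CCT8, and hypoxia library 3 is the lowest for all but CCT7.

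In hypoxia 4 of the 8 subunits, TCP1, CCT3, CCT5 and CCT7, passed as lower at an adjusted p of 0.05 in limma, and 0 as higher. Over all tested genes 21.1% passed as lower and 5.4% as higher. The median log2 fold change of the 8 subunits was -0.82, where that of all tested genes was -0.26. The FPKM of the conditions did not overlap, hypoxia being lower, for 6 of the 8, against 34.9% of tested genes. After each library was divided by its median-ratio factor, TCP1 alone passed, where 7.39% of all genes passed as lower and 7.34% as higher; the median of the 8 was then -0.48, that of all genes 0.02, and 4 of 8 did not overlap, against 18.3%. The count of 4 was 1 without normoxia library 1 (TCP1; 11.6% of all genes lower) and 0 by limma without normoxia library 2 (7.83% of all genes), where 4 of 8 still had an unadjusted p under 0.05, against 28.2% of all genes. In bulk RNA, fewer cells of a type and less RNA per cell cannot be told apart.

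**Figure D2:**
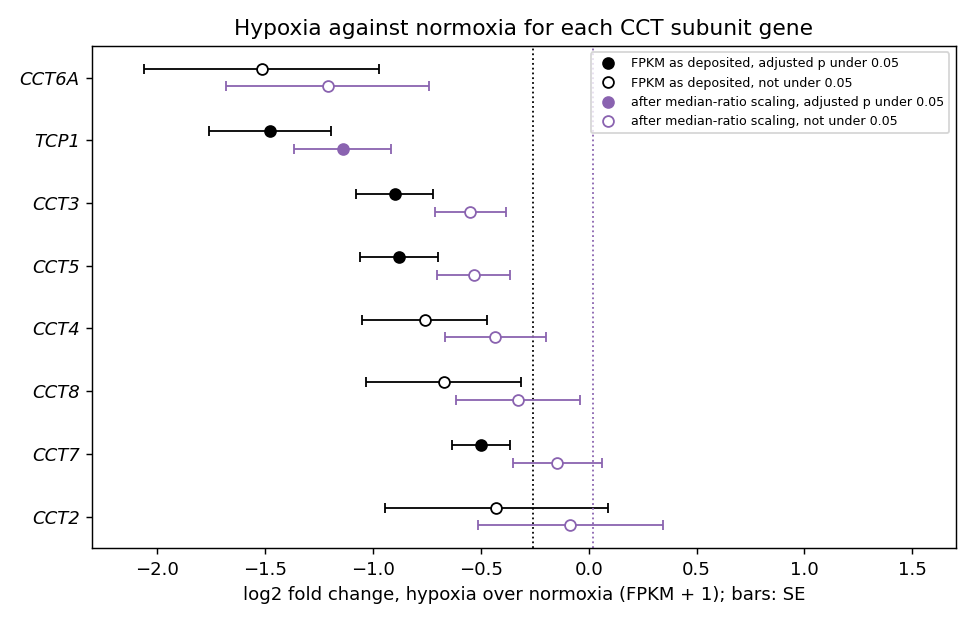
Log2 fold change of each CCT subunit gene in hypoxia against normoxia on the log2(FPKM + 1) scale, with the SE of the limma fit, for FPKM as deposited (black) and after median-ratio scaling (purple). Filled points passed an adjusted p of 0.05, and dotted lines mark the median of all tested genes, -0.26 and 0.02; the points run from -1.52 for CCT6A to -0.43 for CCT2 as deposited.

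Among the subunits of the strong ATP side, TCP1 fell most. TCP1, the alpha subunit and the gene that named the family, had 45.4, 40.3 and 34.1 FPKM in normoxia libraries 1 to 3 and 15.7, 18.8 and 8.46 in hypoxia libraries 1 to 3. Every hypoxia value was below every normoxia value by a wide margin, and hypoxia library 3 was the lowest. Its log2 fold change of -1.48 (SE 0.285) had a limma adjusted p of 0.0101, and after scaling it was -1.14 (0.015). Without normoxia library 2 its adjusted p was 0.0529. Its last 3061 bases overlap ACAT2, which codes for a thiolase of the cytosol and lies on the opposite strand (TCP1 on chromosome 1, 7590140 to 7601795, plus strand, Sscrofa11.1). ACAT2 had 9.10 ± 0.645 and 3.39 ± 0.468 FPKM (-1.20, SE 0.158, adjusted p = 0.0024). The libraries mark strand, per the labels' protocols, but use of strand in the counting was not given in the sources used here. If it did not, reads of these genes could not be told apart where they overlap.

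CCT5, the epsilon subunit, which in human form can build rings of itself alone, had 49.4, 41.7 and 40.4 FPKM in normoxia and 27.2, 24.9 and 18.7 in hypoxia. The groups did not overlap, and the log2 fold change was -0.88 (SE 0.18, limma adjusted p = 0.0122). CCT5 had -0.53 after scaling (adjusted p = 0.075), and its adjusted p was 0.0566 without normoxia library 1 and 0.0568 without normoxia library 2. CCT4, the delta subunit, which also builds rings of itself in human form, had 23.5, 18.7 and 15.2 FPKM in normoxia and 12.8, 14.1 and 6.73 in hypoxia. Normoxia library 3 and hypoxia library 2 lay close together, and the log2 fold change of -0.76 (SE 0.291) did not pass (adjusted p = 0.0997). CCT2, the beta subunit, had 63.3, 47.5 and 39.7 FPKM in normoxia and 50.4, 64.1 and 14.5 in hypoxia. The highest and the lowest CCT2 value were both in hypoxia, so the conditions overlapped. Its log2 fold change was -0.43 (SE 0.517, adjusted p = 0.595), and 0.20 without hypoxia library 3.

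On the weak ATP side, CCT3 and CCT7 passed as lower, while CCT6A, with the most negative change of the 8, did not pass. CCT3 had 95.3, 86.7 and 83.6 FPKM in normoxia and 54.5, 51.5 and 36.9 in hypoxia. The lowest normoxia value stood well above the highest hypoxia value. Its log2 fold change was -0.90 (SE 0.178, limma adjusted p = 0.0109). CCT3 had -0.55 after scaling (adjusted p = 0.0631), 0.0533 without normoxia library 1 and 0.0558 without normoxia library 2. CCT7 had 141, 146 and 140.3 FPKM in normoxia and 107, 88.8 and 107 in hypoxia. The groups did not overlap, and relative to its mean CCT7 had the smallest SD of the 8 in both conditions, 2.29% in normoxia and 10.4% in hypoxia. Its log2 fold change of -0.50 was the smallest that passed (SE 0.135, adjusted p = 0.0326). It was -0.14 after scaling (adjusted p = 0.688), and the call was also lost without normoxia library 1 (0.106), 2 (0.138) or 3 (0.108) and without hypoxia library 1 (0.0813) or 2 (0.0656).

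CCT6A and CCT8 did not pass. CCT6A, the zeta subunit, had 24.3, 23.9 and 17.1 FPKM in normoxia and 8.42, 15.1 and 2.21 in hypoxia. The groups did not overlap, but the hypoxia libraries spread 6.83-fold, the widest of the 8. Its log2 fold change of -1.52 was the most negative of the members, with the largest SE (0.543, limma adjusted p = 0.0827). It passed without hypoxia library 3 (-0.87, adjusted p = 0.00954) and without hypoxia library 2 (-2.03, 0.0148). CCT6B, its paralog known from testis, held at most 0.381 FPKM in any library and was too low to be tested. CCT8, the theta subunit, had 53.7, 49.3 and 42.2 FPKM in normoxia and 37.9, 43.8 and 15.8 in hypoxia. Hypoxia library 2 exceeded normoxia library 3, and the log2 fold change was -0.67 (SE 0.36, adjusted p = 0.22). CCT8 shares 188 bases with USP16, which lies on the opposite strand, so the limit on strand given for TCP1 holds there too. USP16 had a mean of 2.66 FPKM in both conditions.

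The subunits' summed FPKM was 496, 454 and 413 in normoxia and 314, 321 and 211 in hypoxia, a ratio of the means of 0.62. After median-ratio scaling the sums were 431, 389.6 and 381 against 336, 326 and 279, a ratio of 0.784. The groups did not overlap on either scale. No test was made of this sum, since the members were chosen with results known.

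TCP1 made up less of this sum in hypoxia. TCP1 held 9.16, 8.87 and 8.26% of it in normoxia and 5.00, 5.85 and 4.02% in hypoxia. Its share did not overlap between conditions. CCT3 held 19.1 to 20.3% in normoxia and at most 17.5% in hypoxia, and CCT5 went from 9.65 ± 0.41 to 8.43 ± 0.603%, both without overlap. The shares of CCT2, CCT4, CCT6A, CCT7 and CCT8 overlapped. Shares within other sets of genes were not computed, so no background stands beside these. CCT7 held 34.0, 27.7 and 50.9% in the hypoxia libraries and 28.4 to 34.0% in normoxia, so in hypoxia library 3 about as much of the subunit mRNA was CCT7 as all the others together. In that library CCT7 exceeded CCT6A 48.6-fold, whereas the highest subunit exceeded the lowest by 5.98-fold to 12.7-fold in the other 5 libraries. Shares do not change with the scaling of a library. They sum to a fixed total, so that the shares are not independent of each other.

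**Figure D3:**
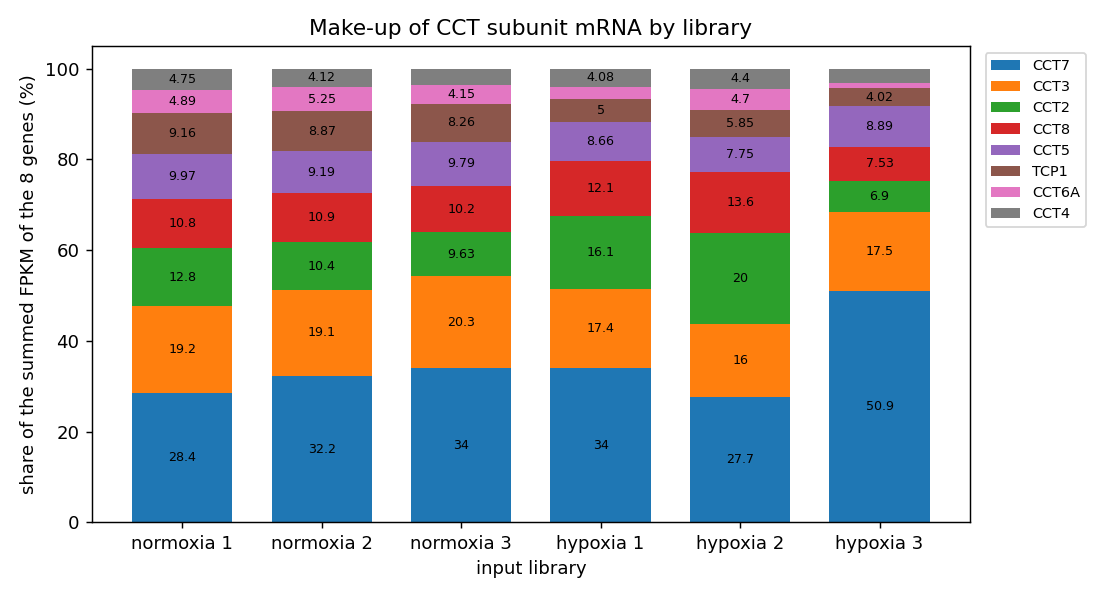
Share (%) of each CCT subunit gene in the summed FPKM of the 8 genes, by input library; shares above 3.9% are printed in the bars. TCP1 takes 8.26 to 9.16% in normoxia and 4.02 to 5.85% in hypoxia, and CCT7 takes 50.9% in hypoxia library 3.

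Within a condition most subunits shared an order of libraries. In normoxia 7 of the 8 had the order library 1 above 2 above 3, as did 32.3% of all tested genes; the other was CCT7, with 2 above 1 above 3. Hypoxia library 3 was the lowest hypoxia library for 7 of the 8, again all but CCT7, and for 55.6% of all tested genes. Their deviations from the hypoxia mean on the log2(FPKM + 1) scale had a median of 0.22, 0.40 and -0.61 in libraries 1 to 3, where those of all tested genes had 0.04, 0.09 and -0.13. The sizes differed between members. CCT6A deviated by -1.29 and CCT2 by -1.27 in hypoxia library 3, and 0.206% and 0.255% of tested genes deviated further down. CCT8 deviated by -0.87, with 4.86% of genes further down, TCP1 by -0.63 (16.2%) and CCT4 by -0.60 (18.0%). CCT3 (-0.34) and CCT5 (-0.30) lay nearer the middle, with 36.8% and 39.4% of genes further down, and CCT7 was above its mean by 0.09. After scaling, CCT6A still deviated by -1.14 and CCT2 by -1.05 in that library. CCT3 then had -0.11 and CCT5 -0.08.

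**Figure D4:**
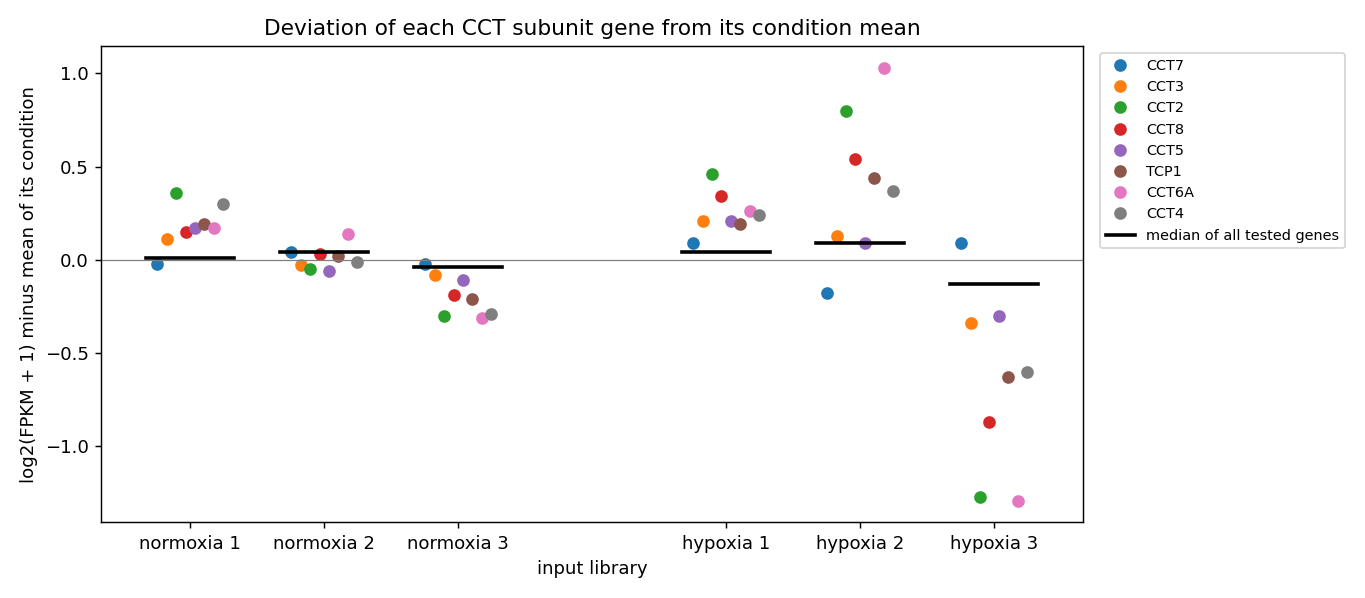
Deviation of each CCT subunit gene from the mean of its condition, in log2(FPKM + 1), by input library; black bars give the median of all tested genes. In hypoxia library 3 the members spread from -1.29 (CCT6A) to 0.09 (CCT7), around a gene median of -0.13.

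The closest pair of subunits was CCT3 and CCT5. CCT3 stood at 1.93, 2.08 and 2.07 times CCT5 in the normoxia libraries and at 2.00, 2.07 and 1.97 times in the hypoxia libraries. The ratio therefore moved by no more than 1.08-fold over the 6 libraries, while each gene by itself moved more than 2-fold. Its SD on the log2 scale was 0.0443, the smallest of the 28 pairs, and of 10149 other genes with FPKM above 0 in every library, 0 kept a steadier ratio to CCT3 and 0 a steadier ratio to CCT5. The next pair, CCT4 and CCT8, had an SD of 0.177. The loosest was CCT6A against CCT7, with an SD of 1.19 and an 8.37-fold range. Steadier ratios than in this pair were kept to CCT6A by 56.6% of genes and to CCT7 by 96.3%. For the subunits other than CCT5 against CCT3, from 6.95% (CCT4) to 87.7% (CCT6A) of genes kept a steadier ratio. Ratios of TCP1 to CCT2, CCT3, CCT4, CCT5, CCT7 and CCT8 were all lower in hypoxia without overlap; TCP1 stood at 1.93, 2.15 and 2.24 times CCT4 in normoxia and at 1.22, 1.33 and 1.26 times in hypoxia. Its ratio to CCT6A overlapped. The ratios of TCP1 all share its values, so they are not separate observations. How often ratios of other genes lie apart in this way was not computed. These pairs were picked after their values were seen, and the values are a description of 6 libraries, without a test.

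The genes whose profiles over the 6 input libraries came nearest to the mean profile of the 8 subunits were ETFDH, NUP160, HMGCS1, POLB and CLDND1. Likeness was the root mean square difference of log2(FPKM + 1), each profile centred on its own mean; it was 0.0395 for ETFDH and 0.0536 for CLDND1, against a median of 0.482 over 10188 tested genes outside the members. ETFDH codes for a mitochondrial electron carrier oxidoreductase and had 22.4, 21.2 and 18.1 FPKM in normoxia and 13.0, 14.6 and 6.79 in hypoxia. HMGCS1, a synthase at the start of cholesterol synthesis, had 5.99 ± 1.1 and 3.04 ± 1.42 FPKM. NUP160, a nuclear pore gene, had 5.50 ± 0.977 and 2.53 ± 1.2, and POLB, a DNA repair polymerase gene, 9.37 ± 1.84 and 4.82 ± 2.0. The 5 had log2 fold changes of -0.85 to -0.94 and none passed limma (adjusted p from 0.0539 to 0.0794). They were picked by their profiles over both conditions, so fold changes near those of the subunits follow from that choice. Set against the mean of the other 7 subunits, CCT4 was nearest (0.111) and CCT6A farthest (0.558); 76 tested genes outside the members lay nearer than CCT4 did, and 7332 nearer than CCT6A.

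Among genes tied to CCT and to folding, the share that passed was near that of all genes. Over the lists of cochaperones, clients and other chaperonins and the heat shock factor HSF1, 42 of 45 genes were tested, 10 passed as lower (23.8%) and 2 as higher (4.76%), near the 21.1% and 5.4% of all tested genes. Their median log2 fold change was -0.36, against -0.26 for all tested genes. After scaling 4 were lower (9.52%) and 2 higher (4.76%), against 7.39% and 7.34% of all tested genes. The median was then -0.04, against 0.02. In prefoldin, the cochaperone that delivers clients to CCT, 2 of 6 genes were lower and 0 higher, with a median of -0.47. PFDN2 had 22.7, 23.8 and 21.3 FPKM in normoxia and 12.5, 10.3 and 10.1 in hypoxia, well apart (a log2 difference of -0.98, SE 0.148, adjusted p = 0.00388 by limma, 0.0406 after scaling). PFDN6 had 56.2 ± 1.76 and 34.6 ± 2.34 FPKM (-0.68, adjusted p = 0.00869). The call of PFDN6 was lost after scaling (0.217) and without normoxia library 2 (0.0523). Of 3 phosducin-like genes, which steer the folding cycle of CCT, 0 passed limma and 1 had an unadjusted p under 0.05, as did 38.2% of all tested genes; PDCL had -0.58 (adjusted p = 0.0967) and PDCL3 -0.55 (0.194).

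The mRNAs of actins and tubulins, the main clients, went in both directions. Of 13 tested genes 3 were lower (23.1%) and 2 higher (15.4%), against 21.1% and 5.4% of all tested genes. Their median log2 fold change was -0.16, or 0.13 after scaling, against -0.26 and 0.02 for all tested genes. ACTA2 had 7642 ± 998 FPKM in normoxia against 3477 ± 612 (a log2 difference of -1.14, adjusted p = 0.00456 by limma, 0.0231 after scaling). It is also in the list of smooth muscle markers. ACTG1 and ACTB, the genes of cytoplasmic actin, did not pass: ACTG1 had 5732 ± 113 and 8592 ± 1887 FPKM (0.56, adjusted p = 0.0537) and ACTB had -0.43 (0.0549). TUBA1A, an alpha tubulin gene, had 1330 ± 99.2 and 933 ± 36.7 FPKM (-0.51, adjusted p = 0.0218, 0.644 after scaling). TUBG1, the gamma tubulin of centrosomes, had 14.1 ± 0.748 and 9.13 ± 1.21 (-0.58, adjusted p = 0.0286, 0.485 after scaling). TUBB2B, a beta tubulin gene, was higher, with 50.0 ± 2.12 and 94.9 ± 20.7 FPKM (0.89, adjusted p = 0.012, 0.0192 after scaling). TUBA4A was low and higher in hypoxia, with 0.696 ± 0.0912 and 1.37 ± 0.134 FPKM (0.48, adjusted p = 0.0359, 0.0287 after scaling). TUBA1A, TUBG1, TUBB2B and TUBA4A each lost the call without normoxia library 1, 2 or 3 or hypoxia library 1 (adjusted p from 0.0526 to 0.17), and TUBG1 (0.0622) and TUBA4A (0.0581) also without hypoxia library 2. Alpha tubulin genes are close copies of each other, as are beta tubulin genes, so reads may have been split within each family.

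Among 5 tubulin cofactors, which finish tubulin after CCT, TBCB was lower and 0 were higher, with a median of -0.27, or 0.05 after scaling. TBCB had 83.5, 80.3 and 90.2 FPKM in normoxia and 32.4, 29.1 and 35.8 in hypoxia. Its groups were far apart, and the log2 fold change of -1.36 (SE 0.14) had an adjusted p of 0.000978 by limma and 0.0198 after scaling. Of 11 other clients 2 were lower (18.2%) and 0 higher, where 21.1% and 5.4% of all tested genes were. The median of these clients was -0.16, or 0.16 after scaling. The cyclin gene CCNE1 had 3.77 ± 0.487 and 1.20 ± 0.456 FPKM (-1.13, adjusted p = 0.00817, 0.0151 after scaling). MLST8, a subunit of the mTOR complexes, had -0.52 (adjusted p = 0.0481). The call of MLST8 was lost after scaling (0.401), with a pseudocount of 0.1 (0.053), without normoxia library 1 (0.0993), 2 (0.195) or 3 (0.157) and without hypoxia library 1 (0.163) or 2 (0.0884).

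The chaperonin of mitochondria did not pass: HSPD1 had 36.2 ± 7.88 and 21.6 ± 13.1 FPKM (a log2 difference of -0.90, adjusted p = 0.21 by limma) and HSPE1 42.9 ± 1.98 and 28.2 ± 7.34 (-0.62, adjusted p = 0.0702). Of the chaperonin-like genes, MKKS, which acts in assembly of the BBSome of cilia, was the 1 tested and had 5.13 ± 0.739 and 2.43 ± 0.579 FPKM (-0.85, adjusted p = 0.0193). MKKS had 0.0599 after scaling, 0.0836 without normoxia library 1 and 0.0959 without normoxia library 2. HSF1, the heat shock factor that drives chaperone genes, had 17.3 ± 2.02 and 9.48 ± 1.64 FPKM (-0.81, adjusted p = 0.0145). Its call was lost after scaling (0.219), without normoxia library 2 (0.0803) or 3 (0.0681) and without hypoxia library 1 (0.0674).

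In the authors' deposited table of differential expression, whose log2 fold change is that of mean FPKM, TCP1 and CCT6A were marked significant. There TCP1 had -1.48 (q = 0.00018) and CCT6A -1.34 (q = 0.0505). In the authors' deposited table CCT3 (-0.90, q = 0.0517) and CCT5 (-0.89, q = 0.0564) were not marked, nor was CCT7 (-0.50, q = 0.653). CCT6A was marked with a q above 0.05, so the mark is not a cut at a q of 0.05. TCP1 and CCT6A had the most negative log2 fold changes of the members there. Of the genes tested here, 12.5% were marked significant and lower in the authors' deposited table, and 10.3% were lower with a q under 0.05.

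The authors' deposited peak lists placed 7 m6A peaks on 5 subunits in normoxia and 4 peaks on 2 subunits in hypoxia. CCT4, CCT5 and CCT7 had no peak in either list, though CCT7 was the most abundant of the members. Among tested genes 11.7% had a peak in neither list. Over all tested genes 85.8% had a peak in the normoxia list and 79.8% in the hypoxia list. Of tested genes with a mean FPKM between that of the lowest and the highest subunit, 82.6% had a peak in normoxia and 79.0% in hypoxia. The enrichments of IP over input on the subunits were low, from 1.40 to 2.54 in normoxia and from 1.33 to 2.35 in hypoxia, where the median peak of each list had 4.23 and 4.81, and the median peak on genes in that FPKM range 2.97 and 3.66. These enrichments are the authors' values, without values by library. Of 1206 differential peaks in the authors' deposited table, 0 lay on a subunit, where 9.62% of tested genes had one.

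CCT3 had the same exonic peak in both lists. In normoxia it spanned chromosome 4, 93749273 to 93750803 (enrichment 1.40, adjusted p = 1e-36), in the 3′ part of the gene, and in hypoxia 93749333 to 93750773 (1.33, adjusted p = 2.51e-13), wholly inside the normoxia span. CCT6A had 3 peaks in normoxia and 0 in hypoxia: an exonic peak on chromosome 3, 16848778 to 16852730 (enrichment 2.34), and peaks in the 3′ UTR at 16844491 to 16844760 (2.54) and 16843983 to 16844252 (1.89). CCT6A mean FPKM was 21.7 in normoxia and 8.58 in hypoxia. CCT8 had a peak at its 5′ end in normoxia alone (chromosome 13, 192419381 to 192423413, annotated to the 5′ UTR, enrichment 1.88), and CCT2 an exonic peak in normoxia alone (chromosome 5, 33862600 to 33864424, 1.47). Among tested genes 8.48% had a peak in the normoxia list alone. The part of RNA level in these lists was not tested.

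At the 3′ end of TCP1 the lists held 1 peak in normoxia (chromosome 1, 7599735 to 7600762, 3′ UTR, enrichment 1.95, adjusted p = 1e-36) and 3 shorter ones in hypoxia. Of these, 7600434 to 7600523 (exonic, 2.13) and 7600583 to 7600643 (3′ UTR, 2.35) lay inside the normoxia span. The last, 7600911 to 7601060 (3′ UTR, 1.55), lay beyond it and had an adjusted p of 0.0776. Peaks of ACAT2 were listed on the opposite strand over the same stretch, at 7599662 to 7599962 (2.47) and 7600380 to 7600769 (1.96) in normoxia and at 7600470 to 7600530 (2.28), 7600590 to 7600650 (2.54) and 7600889 to 7601069 (1.64) in hypoxia. Each hypoxia peak of TCP1 thus overlapped a peak of ACAT2. Over the whole lists 5.87% of normoxia peaks and 5.4% of hypoxia peaks overlapped a peak on the opposite strand. Which of these transcripts carried the mark cannot be told from the lists.

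**Figure D5:**
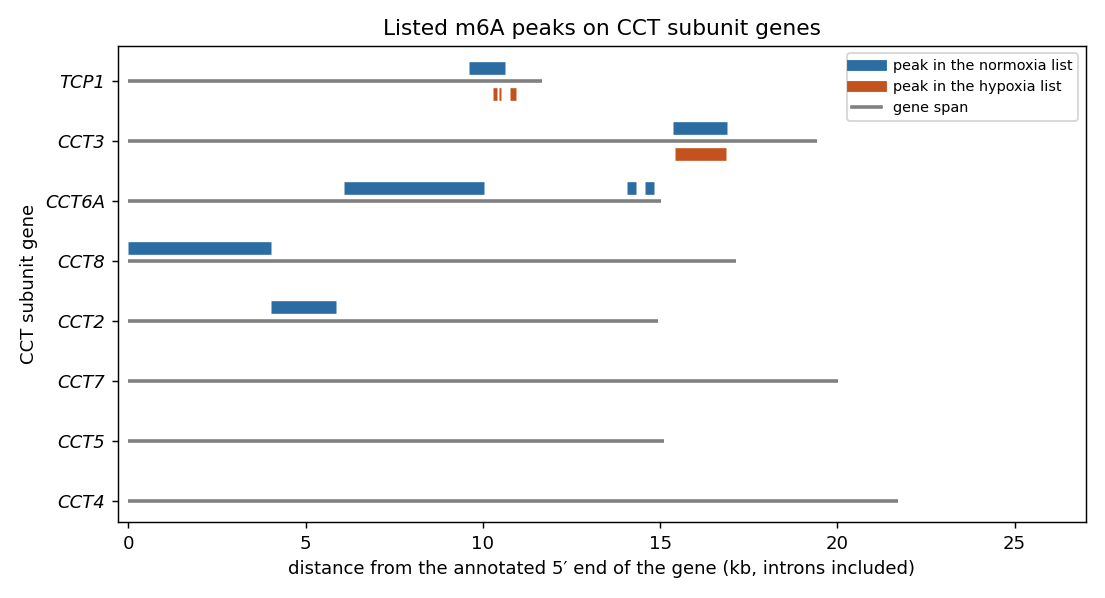
Listed m6A peaks of the normoxia list (blue) and the hypoxia list (orange) on the 8 CCT subunit genes, by distance in kb from the annotated 5′ end of each gene, introns included; grey lines are gene spans. CCT3 and TCP1 have peaks in both lists, CCT6A, CCT8 and CCT2 in normoxia alone, and CCT7, CCT5 and CCT4 in neither.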

How the data were processed

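Per the file headers, the authors deposited FPKM for each gene in the 6 input libraries. The submitters' processing notes name HISAT2 2.0.4, HOMER 4.10, StringTie 2.1.2, fastp 0.19.4, edgeR 4.1 and FastQC, and build Sscrofa11.1; the role of each was not given in the sources used here. For each gene the deposited comparison holds a q-value, a p-value and the log2 of the fold change, and for each peak the deposited lists hold a log2 enrichment (printed here as a fold) with p-values. Peak starts are counted from 1 here, 1 more than deposited. The peak caller and any pooling of replicates for it were not given in the sources used here.

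Of 18060 genes, the 10196 that reached 1 FPKM in 3 or more libraries were tested with limma 3.58.1 in R 4.3.3 on log2(FPKM + 1), with a variance trend and robust estimation, without a replicate term. Adjusted p-values are Benjamini-Hochberg values over all tested genes. Fold changes on this scale understate changes of genes with low FPKM. With 3 against 3 libraries an exact permutation test cannot go below 0.1, so values by library are given without one. FPKM hold no counts: among 1150 low genes of normoxia libraries 1 and 2, 4 shared the most frequent ratio, so depth is unknown and no counting interval is given. Genes named are all members, listed genes that passed (otherwise the 2 most abundant of a list), and the 5 nearest profiles; other names were chosen after their values were seen. The members and lists were chosen with earlier results of these data known. Alternatives were a pseudocount of 0.1, median-ratio scaling, no filter, no variance trend, the replicate number as a block and each library left out.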

Additional observations from a re-analysis of the deposited data

How the results depend on the processing

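The count of 4 lower subunits was 1 after median-ratio scaling, where 7.39% of all tested genes were lower. It was 0 to 5 with each library left out, where 7.83% to 31.2% of all tested genes were lower. It stayed at 4 with a pseudocount of 0.1 (19.9% of all genes), without the filter (11.6%) and without a variance trend (21.6%). Of the cochaperones, clients, other chaperonins and HSF1 the count was 4 lower after scaling (main 10). With each library left out 4 to 14 were lower and 0 to 2 higher (main 2). Over all tested genes those fits called 7.83% to 31.2% lower and 3.28% to 11.2% higher. The log2 fold change of CCT2, which passed in no fit, ran from -0.83 without hypoxia library 2 to 0.20 without hypoxia library 3. With the replicate number as a block CCT4 (adjusted p = 0.0164) and CCT6A (0.00957) also passed limma, while MLST8 no longer did (0.0566). That made 6 lower subunits, where 27.1% of all tested genes were lower. Of the 42 other listed genes tested, 16 were lower (38.1%) and 3 higher (7.14%), against 27.1% and 6.82% of all tested genes. Whether the replicate numbers pair the samples cannot be told from these values. Deviations of same-numbered libraries correlated at 0.586, 0.0398 and 0.697 over genes. Normoxia library 1 was closest to hypoxia library 2 (0.641) and had -0.712 with hypoxia library 3. Deviations from a mean of 3 libraries are tied to each other, so these correlations are not independent. Over all tested genes 2148 were lower and 551 higher, 753 and 748 after scaling, and 1132 (without normoxia library 2) to 4329 (without hypoxia library 3) passed in all with a library left out. Of the 7 normoxia and 4 hypoxia peaks on subunits, 7 and 3 had an adjusted p under 0.05, and 3 pairs overlapped under either rule. Depth is unknown, so a difference in low values, such as those of CCT6B, cannot be told from counting error.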
